A study of Mus musculus with 3 samples.

Results

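A group of 9 genes of inositol phosphate and calcium store signalling were examined for Ad4BP/SF-1 ChIP peaks in mouse testicular Leydig cells, the androgen-producing cells of the testis. The genes were *Plcb1*, *Itpr1*, *Itpr2*, *Itpr3*, *Inpp5a*, *Atp2a2*, *Camk1*, *Camk2d* and *Camk4*. They were chosen by their place in this pathway and by the high score of a peak upstream of *Inpp5a*, so that score is given as a description and no test was made of it. These were 9 of the 21938 protein-coding genes of the GENCODE annotation of mm10. A ChIP peak was assigned to a gene when it touched the gene body or a flank of 50 kb at each end. By this rule 17 of the 5721 peaks from vehicle-treated cells and 14 of the 4025 peaks from cAMP-treated cells belonged to the 9 genes.

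The Leydig cells came from pooled 9-week-old male ICR mice, were enriched on a Percoll gradient and were cultured on collagen, after which cells that did not attach were removed. Chromatin was precipitated with an antibody against Ad4BP/SF-1, also named NR5A1, a nuclear receptor of steroidogenic cells. Cells received either vehicle or cAMP, and both groups shared the strain, age and culture. The dose and duration of cAMP were not given in the sources used here, and the third sample, input DNA, was not used here. There was 1 library per condition, so no difference between the groups could be set against replicate error, and all values below describe these 2 libraries. Peak lists hold no expression, so the Leydig cell label was not checked with marker genes. Each peak carries the score that MACS gave it, the negative log10 of the p-value times 10. It rises with sequencing depth, which is unknown for both libraries. The absence of a peak means only that none was called, not that Ad4BP/SF-1 was absent. Scores began at 50 for vehicle and at 50.01 for cAMP.

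The pathway begins at the plasma membrane. A receptor coupled to a G protein activates a phospholipase C such as PLCB1, which splits the membrane lipid PIP2 into diacylglycerol and inositol trisphosphate (IP3). IP3 opens the IP3 receptors ITPR1, ITPR2 and ITPR3, which are calcium channels of the endoplasmic reticulum. INPP5A removes a phosphate from IP3 and so ends the signal, and the pump ATP2A2, also known as SERCA2, returns calcium to the store. Calcium bound to calmodulin activates the kinases CAMK1, CAMK2D and CAMK4. In Leydig cells, luteinizing hormone acts mainly through cAMP, and it also mobilizes calcium.

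The sequences at the peaks of these genes are shown first, because the position and letters of the Ad4BP/SF-1 consensus differed among them. The consensus was searched on both strands as CCAAGGCC, CCAAGGTC, TCAAGGCC or TCAAGGTC. Each line gives 30 bases on either side of a copy, 5′ to 3′ on the strand of the copy, from the RefSeq copy of mm10, with whole consensus copies in capitals. The copy is the one nearest to the centre of the highest-scoring peak of the gene. For *Itpr1* and *Plcb1*, whose highest-scoring peak held no consensus, a lower-scoring peak is shown.
*Inpp5a* upstream peak, chr7:139364247-139364314, plus strand: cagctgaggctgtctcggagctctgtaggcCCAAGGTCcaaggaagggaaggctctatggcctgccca
*Itpr1* intron 40, chr6:108430083-108430150, plus strand: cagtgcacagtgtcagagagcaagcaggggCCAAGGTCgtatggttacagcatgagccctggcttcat
*Itpr2* intron 2, chr6:146470138-146470205, minus strand: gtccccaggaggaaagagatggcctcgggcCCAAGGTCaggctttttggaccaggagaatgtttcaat
*Itpr3* downstream peak, chr17:27145599-27145666, plus strand: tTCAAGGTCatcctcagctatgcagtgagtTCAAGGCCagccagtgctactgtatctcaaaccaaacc
*Atp2a2* upstream peak, chr5:122503266-122503333, plus strand: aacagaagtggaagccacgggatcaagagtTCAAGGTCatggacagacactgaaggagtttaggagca
*Camk1* upstream peak, chr6:113351303-113351370, plus strand: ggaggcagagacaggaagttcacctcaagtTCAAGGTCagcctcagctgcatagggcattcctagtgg
*Camk2d* intron 8, chr3:126787878-126787945, minus strand: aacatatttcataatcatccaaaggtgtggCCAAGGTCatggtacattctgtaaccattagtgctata
*Plcb1* intron 32, chr2:135453635-135453702, minus strand: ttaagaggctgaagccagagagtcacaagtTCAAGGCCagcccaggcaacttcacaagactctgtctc
In 6 of the 8 windows the copy in the middle was followed by A, which gives the longer site that ends in AGGTCA or AGGCCA. At *Inpp5a* it was followed by C and at *Itpr1* by G.

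The second set shows where a peak lacked a consensus at its centre. For the *Inpp5a* upstream peak and an *Itpr2* peak the capitals mark AGGTCA, the nuclear receptor hexamer, and for the higher-scoring *Plcb1* peak they mark CAAGGTC, the last 7 bases of the consensus.
*Inpp5a* upstream peak, chr7:139364095-139364160, plus strand: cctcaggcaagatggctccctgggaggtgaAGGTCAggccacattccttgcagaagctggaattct
*Itpr2* intron 32, chr6:146316589-146316654, minus strand: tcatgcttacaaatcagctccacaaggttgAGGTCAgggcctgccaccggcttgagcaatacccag
*Plcb1* intron 2, chr2:134947039-134947105, minus strand: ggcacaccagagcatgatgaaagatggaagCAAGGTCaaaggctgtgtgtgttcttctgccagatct
Counted from 1 at the 5′ end of the consensus, the *Inpp5a* hexamer lay in a sequence with 1 mismatch, C2G. The *Itpr2* hexamer lay in a sequence with 2 mismatches, C2T and A3G. In each token the first letter is the base of the consensus and the last is that of the genome.

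*Inpp5a* is described first, and the score of its upstream peak was part of the choice of genes, so its high rank is not a finding. Its gene body spans 191 kb of the plus strand, at chr7:139389109-139579652, and has 16 exons. The upstream peak, chr7:139363777-139364506, scored 805.37 in the vehicle list, where it ranked 2, and its counterpart, chr7:139363746-139364363, scored 458.42 in the cAMP list, where it ranked 16. Both ranks were near the top of their lists. The peaks shared 587 bp and had their centres 25.0 and 25.1 kb upstream of the annotated 5′ end, the transcription start site (TSS). *Inpp5a* was the 1 protein-coding gene within 50 kb of them, and no gene body of another coding gene covered them.

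This peak differed from most peaks in where its consensus lay. It held 1 copy, CCAAGGTC, at chr7:139364277-139364284. The copy was 139 bp from the centre of the vehicle peak and 226 bp from the centre of the cAMP peak, whereas the median over all peaks with a copy was 36 bp in each list. Among all peaks with a copy, one lay nearer to the centre in 96.5% for vehicle and 99.3% for cAMP. The AGGTCA hexamer shown above was 14 bp from the centre of the vehicle peak and 73 bp from that of the cAMP peak. Only the wider vehicle peak reached a further CAAGGTC, whose first base on the reference is 139364391, and an AP-1 type sequence, TGAGTCA, at 139364399. The lists give no summit, so the centre stands for the middle of the called region and not for the point of highest accumulation.

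A lower-scoring *Inpp5a* peak was called in the vehicle list at chr7:139399869-139400411, in intron 1. It scored 63.3 and ranked 3715. It lay 349 bp upstream of an internal annotated TSS of a protein-coding *Inpp5a* transcript, and it held CCAAGGCC and TCAAGGCC. No cAMP peak overlapped it, and the nearest was 35505 bp away, at the upstream site. The 3 shared peaks whose pair of scores was most like that of the *Inpp5a* upstream peak, by distance of log10 scores over the 2 libraries, had their nearest coding TSS at *Nrsn2* (904.96 in vehicle and 469.03 in cAMP), *Jund* (693.34 and 467.59) and *Relb* (718.52 and 415.1). Each of these 3 vehicle peaks held 2 copies of the consensus.

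**Figure D1:**
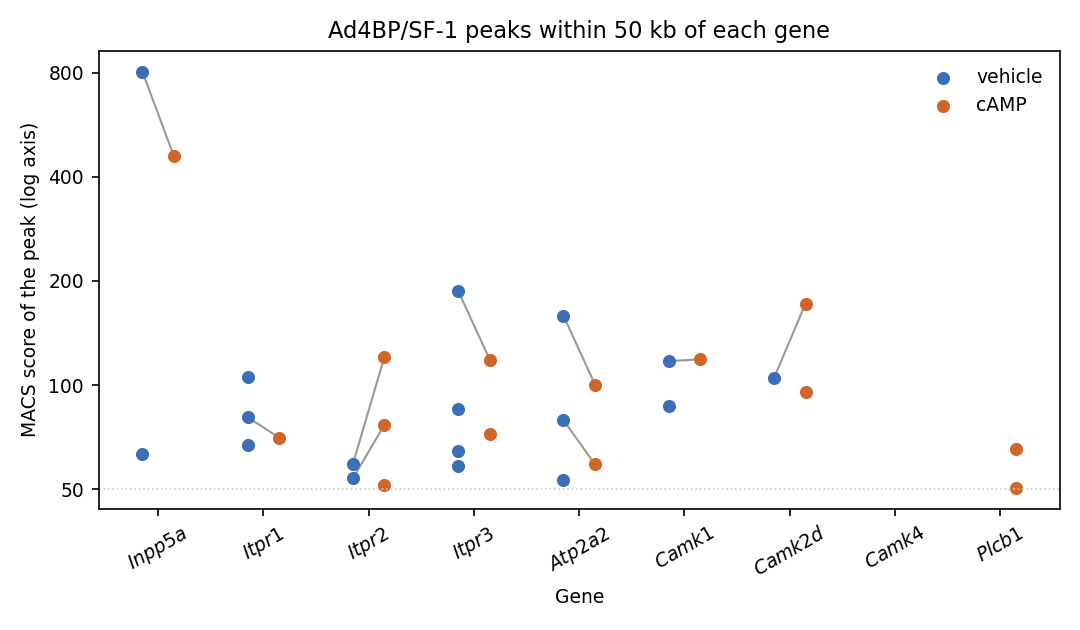
MACS score of each peak within 50 kb of the 9 genes, on a log axis, in vehicle (blue) and cAMP (orange), with grey lines joining overlapping peaks and a dotted line at the lowest score. The *Inpp5a* pair stands far above the rest, 805.37 and 458.42, and every other peak lies at or below 187.28. The score of the *Inpp5a* peak was part of the choice of genes.

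Upstream in the pathway, *Plcb1* had peaks in the cAMP list alone. PLCB1 is a phospholipase C activated by the Gq family of G proteins. The gene body spans 689 kb of the plus strand, at chr2:134786067-135475258, and is the longest of the 9. A peak in intron 2, chr2:134946978-134947244, scored 65.44 and ranked 2177. It held no full consensus and 1 CAAGGTC, shown above. A peak in intron 32, chr2:135453396-135453821, scored 50.41 and ranked 3938, close to the end of the list, and held TCAAGGCC. The nearest vehicle peaks were 287909 and 83725 bp away. Just beyond the 50 kb limit a vehicle peak that scored 57.19 lay 62.3 kb from the gene body, and a cAMP peak that scored 236.59 and ranked 94 lay 84.1 kb from it. For both, the nearest coding TSS was that of *Plcb4*, the neighbouring gene for another phospholipase C beta.

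The 3 genes for IP3 receptors each had peaks in both lists. Some of these scores were low. When the vehicle list was limited to its 4025 highest-scoring peaks, the length of the cAMP list, *Itpr2* had 0 vehicle peaks, and with scores of at least 100 *Itpr2* had 0 vehicle peaks and *Itpr1* 0 cAMP peaks. *Itpr1*, the receptor type best known from neurons, spans 338 kb of the plus strand at chr6:108213096-108551109. All of its peaks lay in introns far from its 5′ end. In intron 40, a vehicle peak at chr6:108429786-108430302 scored 80.71 (rank 2322), and its cAMP counterpart at chr6:108429961-108430385 scored 70.48 (rank 1855). A peak nearby in the same intron, chr6:108426750-108427300, scored 105.47 in vehicle and had no counterpart, although a cAMP peak began 2660 bp away. It held neither the consensus nor CAAGGTC or CAAGGCC, and its 1 AGGTCA was 271 bp from the centre. The vehicle peak in intron 36, chr6:108411080-108411685, scored 67.23, had no counterpart and held TCAAGGCC 3 bp from its centre.

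At *Itpr2* the scores were higher in the cAMP list. The gene spans 394 kb of the minus strand at chr6:146108299-146502223. The intron 2 peak scored 59.15 in vehicle (chr6:146469858-146470434, rank 4232) and 120.75 in cAMP (chr6:146469925-146470359, rank 586). The share of the list with a lower score was 25.9% in vehicle and 85.4% in cAMP. The intron 32 peak scored 53.71 in vehicle (chr6:146316431-146316910, rank 5023) and 76.79 in cAMP (chr6:146316461-146316881, rank 1556). It held no consensus in either list. A further peak in intron 8, chr6:146415494-146415976, was called in cAMP alone, scored 51.51 and held TCAAGGTC. It was near the lower end of the list, and the nearest vehicle peak was 53881 bp away.

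*Itpr3* differed from the other IP3 receptor genes in that no peak lay in its gene body, which spans 64.9 kb of the plus strand at chr17:27057304-27122223. Its highest-scoring peak lay 23.1 kb beyond the 3′ end in vehicle (chr17:27145334-27145975, score 187.28, rank 372) and overlapped a cAMP peak (chr17:27145272-27145903, score 118.4, rank 612). These peaks were inside *Ip6k3*, a gene for a kinase that makes inositol pyrophosphates, and the cAMP peak reached an exon of it. They held TCAAGGTC and TCAAGGCC within 1 stretch, shown above. The other vehicle peaks scored 85.09 (chr17:27015872-27016196), 58.27 (chr17:27039527-27040111) and 64.58 (chr17:27128577-27129109), and none had a counterpart. The peak with score 85.09 was inside *Ggnbp1*, and 73.2% of its bases were masked as repeats. A cAMP peak that scored 72.39 (chr17:27012295-27012716) was also inside *Ggnbp1*, 3155 bp from that vehicle peak. It was the member nearest to the 50 kb limit, at 44.6 kb from the *Itpr3* gene body. Just outside, at 66.3 kb, both lists held a peak, with scores of 59.65 in vehicle and 51.08 in cAMP. For all 6 *Itpr3* peaks the nearest coding TSS belonged to another gene, *Ggnbp1* or *Uqcc2*, so these peaks cannot be given to *Itpr3* from position alone.

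*Atp2a2*, the gene for the store pump, had the peak nearest to the main TSS of its gene. The gene body spans 48.7 kb of the minus strand at chr5:122453513-122502225. The peak scored 158.82 in vehicle (chr5:122503037-122503560, rank 556) and 100.36 in cAMP (chr5:122502990-122503567, rank 922), and its centre lay 1.07 and 1.05 kb upstream of the TSS. Its TCAAGGTC was 1 bp from the centre in vehicle and 21 bp in cAMP. Farther upstream, 15011 bp from the TSS, a vehicle peak at chr5:122516971-122517501 scored 53.03 and held 2 overlapping copies of TCAAGGTC. It had no counterpart within 13403 bp. On the other side of the gene, 28.1 kb beyond its 3′ end, overlapping peaks inside *Anapc7* scored 79.27 in vehicle (chr5:122425042-122425434) and 58.97 in cAMP (chr5:122425036-122425417).

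**Figure D2:**
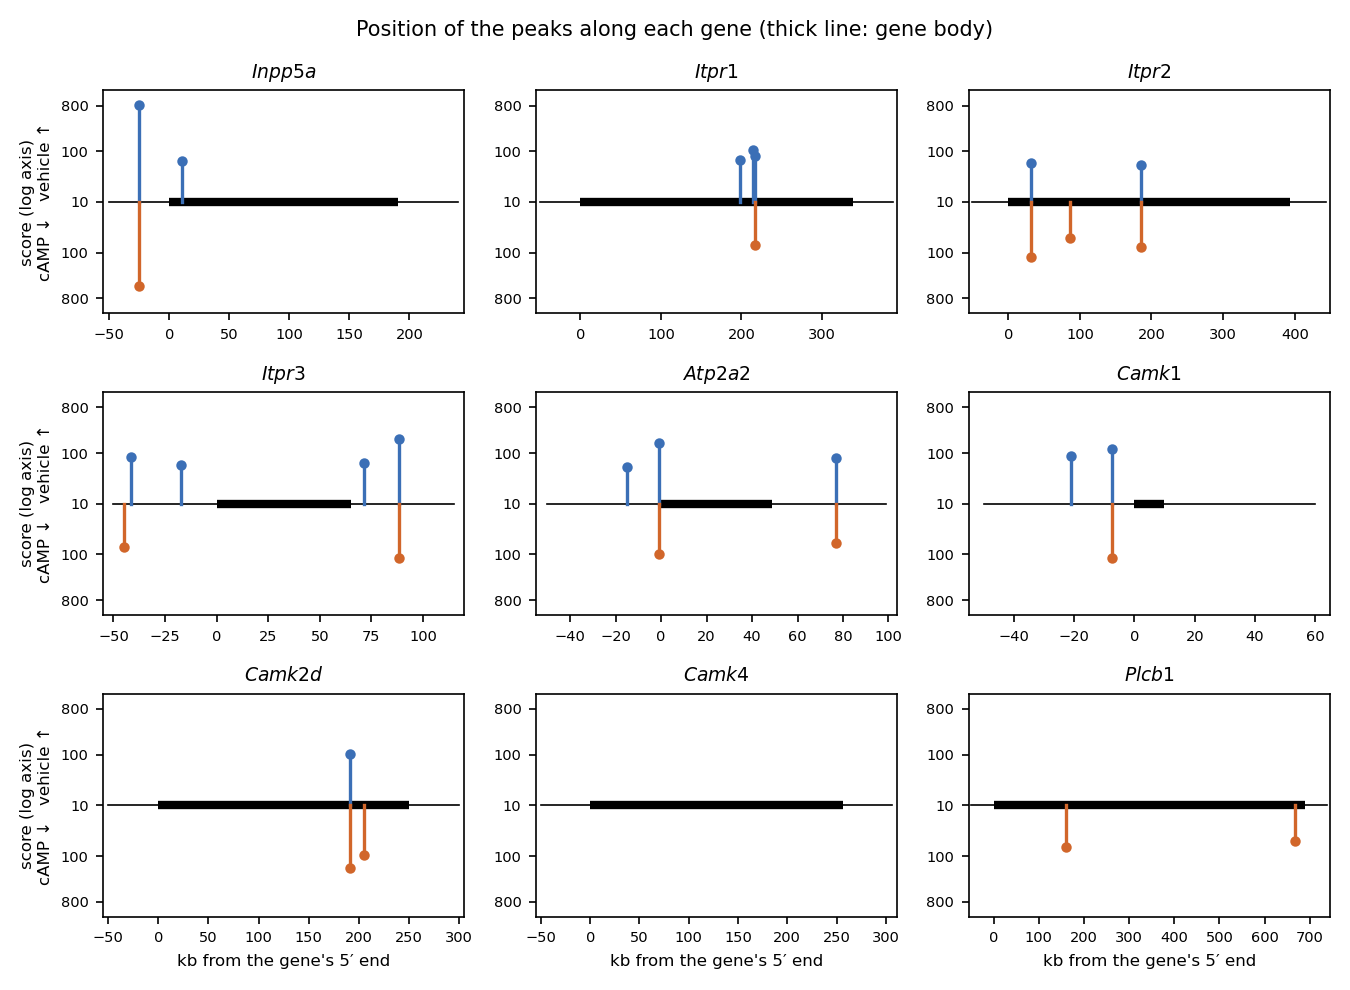
Position of each peak from the 5′ end of its gene (horizontal axis, kb, on the strand of the gene), with the MACS score upward for vehicle (blue) and downward for cAMP (orange) on a log axis that starts at 10. The thick line is the gene body: the peaks of *Itpr1*, *Itpr2*, *Camk2d* and *Plcb1* lie inside it, those of *Itpr3*, *Atp2a2* and *Camk1* outside it, *Inpp5a* has its lower-scoring peak inside and its higher-scoring peak outside, and *Camk4* has none.

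The calmodulin-dependent kinase genes differed from each other. *Camk1* encodes a cytoplasmic kinase that needs activation by an upstream kinase, and its gene body spans 9.86 kb of the minus strand at chr6:113334124-113343984. A peak 7.41 kb upstream scored 117.3 in vehicle (chr6:113351088-113351703, rank 1114), and its counterpart scored 118.64 in cAMP (chr6:113351133-113351612, rank 609). The scores were nearly equal, and the rank was better in the shorter cAMP list. There were 7 coding genes within 50 kb of this peak, and the nearest coding TSS was that of *Camk1*. A vehicle peak 20.9 kb upstream, chr6:113364570-113365218, scored 87.01, held CCAAGGTC, had no counterpart within 12957 bp and was nearer to the TSS of *Tada3*.

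*Camk2d* encodes the delta subunit of CaM kinase II, and its gene body spans 250 kb of the plus strand at chr3:126596302-126846326. The intron 8 peak scored 104.73 in vehicle (chr3:126787653-126788141, rank 1398) and 172.06 in cAMP (chr3:126787719-126788088, rank 231). The CCAAGGTC of this peak was 14 and 8 bp from the centre. A peak in cAMP alone, chr3:126801373-126801934, scored 95.7, ranked 1017, had its centre in intron 12 of the principal transcript and overlapped an annotated *Camk2d* exon. It was the highest-scoring of the 5 cAMP peaks without a counterpart, and the nearest vehicle peak was 13231 bp away, in intron 8. Its centre was 64 bp upstream of the start of a transcript with a retained intron and 1.29 kb upstream of an internal TSS of a protein-coding transcript.

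*Camk4* encodes a nuclear kinase that is also known from male germ cells, and its gene body spans 256 kb of the plus strand of chromosome 18, from 32934931 to 33191228. Neither list held a peak within 50 kb of it. The nearest vehicle peak scored 52.42, lay 70.6 kb away and was nearest to the TSS of *Stard4*, a gene for a cholesterol transfer protein. The nearest cAMP peak was 584 kb away.

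Counted by gene, 7 of the 9 had a peak in vehicle, 8 in cAMP and 7 in both lists. Among all 21938 protein-coding genes the shares were 36.7% in vehicle, 28.9% in cAMP and 22.5% in both. Long genes offer more room for a peak, and 6 of the 9 span at least 100 kb. Of these 6, 4 had a peak in vehicle, 5 in cAMP and 4 in both, against 46.0%, 39.8% and 30.5% of the 2492 protein-coding genes of that length. The list was chosen with results of these data known and holds 9 genes, so these shares are a description and carry no test.

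**Figure D3:**
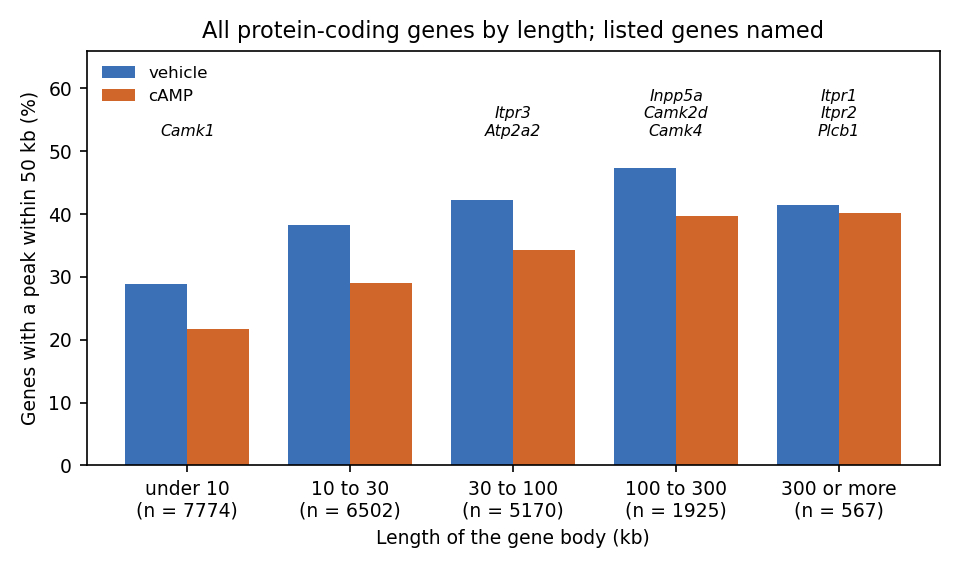
Percent of all protein-coding genes with a peak within 50 kb, by length of the gene body, in vehicle (blue bars) and cAMP (orange bars), with the number of genes under each class and the 9 genes named above their class. The vehicle share rises from 28.8% for genes under 10 kb to 47.3% for the next-to-longest class and is 41.4% for the longest.

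Of the peaks at these genes, 9 of 17 in vehicle (52.9%, 95% exact Clopper-Pearson interval 27.8% to 77.0%) had a counterpart, a peak of the other list sharing at least 1 bp, and 9 of 14 in cAMP did (64.3%, 35.1% to 87.2%). Over all peaks the shares were 37.9% in vehicle and 53.8% in cAMP, inside both intervals, which cover counting error only. The 2 counts rest on the same 9 pairs. The intervals treat peaks as independent, although several lie at the same gene and the *Inpp5a* pair was part of the choice. The 8 vehicle peaks without a counterpart scored from 53.03 to 105.47, and the 5 cAMP peaks without one from 50.41 to 95.7. The shared peaks reached higher scores in both lists.

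The ratio of the cAMP score to the vehicle score ranged widely over the 9 pairs. Over all 2171 overlapping pairs its median was 0.880, with 5% of pairs below 0.382 and 5% above 1.89, and 38.9% of pairs scored higher in cAMP. Of the 9 pairs 4 scored higher in cAMP, and their median ratio was 0.873. The *Inpp5a* pair had its vehicle score, the denominator, as part of the choice of genes, so its low ratio is not a finding. This was the lowest ratio, 0.569, above that of 18.4% of all pairs. The ratio was 0.632 both at the *Itpr3* downstream peak and at the *Atp2a2* upstream peak, 0.744 at the *Atp2a2* downstream peak, 0.873 at *Itpr1* and 1.01 at *Camk1*. The highest ratios were 1.43 and 2.04 at *Itpr2* and 1.64 at *Camk2d*. The *Itpr2* intron 2 ratio was above that of 96.6% of all pairs, the *Camk2d* ratio above 91.7% and the *Itpr2* intron 32 ratio above 86.5%. With 1 library per condition and unknown depth, these ratios cannot be read as an effect of cAMP.

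**Figure D4:**
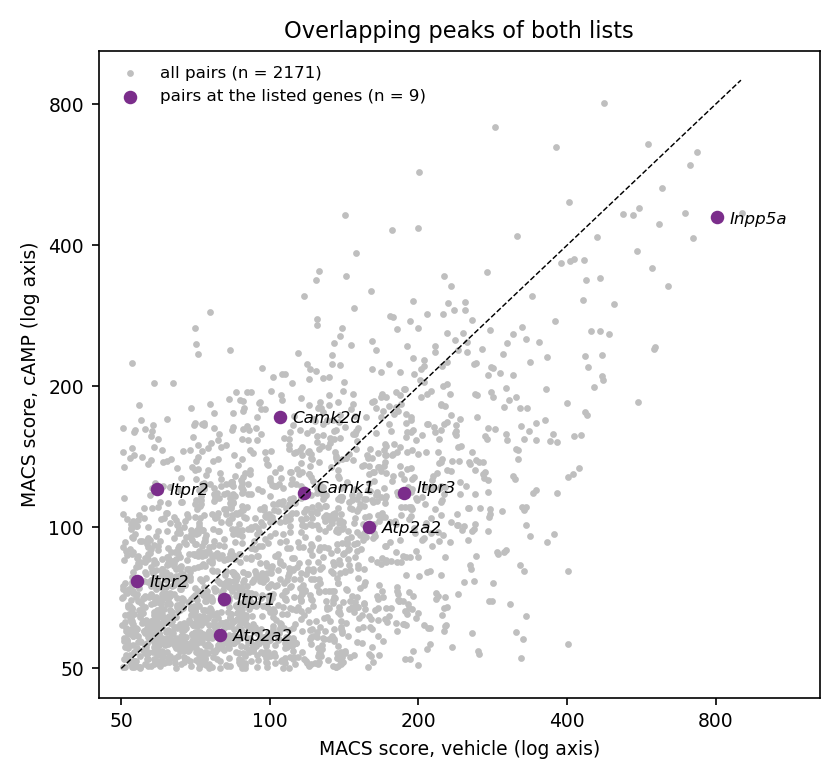
Vehicle score (horizontal, log axis) against cAMP score (vertical, log axis) for all 2171 overlapping pairs of peaks (grey) and the 9 pairs at the listed genes (purple), with a dashed line where the scores are equal. Both *Itpr2* pairs and the *Camk2d* pair lie above the line, *Camk1* lies on it, and the others, with *Inpp5a* at the far right, lie below.

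The place of each peak was set beside that of every pair of a protein-coding gene and a peak within 50 kb. In vehicle, 7 of 17 peaks (41.2%) had their centre in the gene body, all in introns, 7 upstream (41.2%) and 3 downstream of it (17.6%), against 26.9%, 36.0% and 37.1% of all pairs. In cAMP, 8 of 14 (57.1%) lay in the gene body, 4 upstream (28.6%) and 2 downstream (14.3%), against 27.7%, 35.9% and 36.4%. For genes of at least 100 kb alone, the share in the gene body was 67.2% in vehicle and 65.2% in cAMP. At the listed genes of that length, every peak but the *Inpp5a* upstream pair lay in the gene body. At the shorter listed genes, no peak did. In each list 1 peak was within 1 kb of an annotated TSS of its gene (5.88% and 7.14%), near the 6.19% and 5.63% of all pairs. These were the intron 1 peak of *Inpp5a* in vehicle and the intron 12 peak of *Camk2d* in cAMP, both at internal start sites. The nearest coding TSS belonged to another gene for 6 of 17 vehicle peaks (35.3%) and 4 of 14 cAMP peaks (28.6%). Over all pairs of a protein-coding gene and a peak within 50 kb, it belonged to another gene in 64.0% for vehicle and 62.2% for cAMP.

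The consensus was present in 15 of the 17 vehicle peaks (88.2%, 63.6% to 98.5%) and in 12 of the 14 cAMP peaks (85.7%, 57.2% to 98.2%). Over all peaks it was present in 80.4% in vehicle and 77.1% in cAMP, again inside the intervals. The peaks without it were those of *Itpr1* at score 105.47 and *Itpr2* intron 32 in vehicle, and those of *Itpr2* intron 32 and *Plcb1* intron 2 in cAMP. TCAAGGTC was the most frequent form, with 8 of 18 copies in vehicle and 6 of 13 in cAMP, and it made up 42.6% and 45.1% of the copies in all peaks. CCAAGGTC made up 5 copies in each list, against 17.5% and 15.7% of the copies in all peaks. The copies followed by A were 15 of 18 in vehicle and 10 of 13 in cAMP, against 81.4% and 84.4% over all peaks.

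Other sequences were searched in the same peaks on both strands. The cAMP response element TGACGTCA was in none of the peaks of these genes, and it was in 0.699% of all vehicle peaks and 0.770% of all cAMP peaks. The AP-1 sequence TGANTCA was in 2 vehicle peaks, at *Inpp5a* upstream and at the lower-scoring *Atp2a2* upstream peak, and in both *Plcb1* peaks of the cAMP list. It was in 21.6% and 23.2% of all peaks. The GATA sequence AGATAA was in 2 peaks of each list, against 25.9% and 23.7% of all peaks. CCAAT, bound by NF-Y, was in 8 vehicle and 6 cAMP peaks, against 46.7% and 45.1%. The GC box GGGCGG was in none, against 13.3% and 9.79%. AGGTCA, which overlaps any consensus copy that ends in GGTC and is followed by A, was in 13 vehicle and 11 cAMP peaks, against 71.5% and 69.2%. A match of letters is not a bound site, and no match says only that the letters are not in the called region.

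The wider pathway was described with a list of 135 genes in 12 groups, which included the 9 genes. The groups hold chosen members of each family, and several families have further members that were not examined. A peak within 50 kb was found for 83 of the 135 genes in vehicle (61.5%, 52.7% to 69.7%), for 57 in cAMP (42.2%, 33.8% to 51.0%) and for 47 in both lists (34.8%, 26.8% to 43.5%), against 36.7%, 28.9% and 22.5% of all protein-coding genes. Here and below, a gene in both lists had a peak in each, and these need not overlap. The intervals treat the genes as independent, although neighbours can share a peak. The list was also chosen with results of these data known, so the intervals carry no test. Without the 9 genes the counts were 76 of 126 in vehicle (60.3%), 49 in cAMP (38.9%) and 40 in both (31.7%). Of the 37 other genes that span at least 100 kb, 20 had a peak in vehicle (54.1%), 13 in cAMP (35.1%) and 9 in both (24.3%). Among all protein-coding genes of that length the shares were 46.0%, 39.8% and 30.5%, so the shares of these long pathway genes were above in vehicle, below in cAMP and below in both lists. All 3 lay near the shares of all long genes and are not a result about the pathway. They cover 37 of the 126 genes, and the shorter genes were not set beside all genes of their length. Neighbouring genes can share a peak, and when a peak was given to the gene with the nearest coding TSS alone, 43 of the 135 had one in vehicle, 30 in cAMP and 19 in both, against 16.5%, 12.4% and 8.63% of all protein-coding genes.

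The groups are small, and their counts are set beside the shares of all protein-coding genes, 36.7% in vehicle, 28.9% in cAMP and 22.5% in both lists. Of 14 phospholipase C genes, 9 had a peak in vehicle (64.3%) and 6 in cAMP (42.9%), with *Plcb3*, *Plcb4*, *Plcd1* and *Plcd3* in both lists. At *Plcb4* and *Plcd3* the peaks of the lists did not overlap. Of 12 genes that supply PIP2, 9 had one in vehicle (75.0%) and 5 in cAMP (41.7%). Among 18 phosphatase genes, 12 had one in vehicle (66.7%) and 6 in cAMP (33.3%, near the share of all genes), and *Inpp5a*, *Inpp5j*, *Synj1*, *Inpp4a* and *Impa1* had one in both. Of 11 inositol phosphate kinase genes, 9 had one in vehicle (81.8%) and 7 in both lists (63.6%). At *Itpka*, *Itpkc* and *Itpk1*, which are among the latter, the peaks of the lists did not overlap. Of the 3 Gq family alpha subunit genes examined, *Gnaq*, *Gna11* and *Gna14*, 2 had one in vehicle, 2 in cAMP and 1, *Gna11*, in both.

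Among the genes for calcium handling, again beside 36.7%, 28.9% and 22.5% of all genes, release channels and their regulators had a peak for 8 of 11 genes in each list (72.7%), and 7 were in both, with *Ryr1*, *Ryr2*, *Ahcyl1* and *Irag1* beside the IP3 receptors. At *Ryr2* and *Ahcyl1* the peaks of the lists did not overlap. *Ryr3* and *Itpripl2* had no peak. Of 7 store pumps and regulators, 4 had one in vehicle (57.1%) and 3 in cAMP (42.9%), and the genes for the pump inhibitors phospholamban and sarcolipin, *Pln* and *Sln*, had none. Of 9 store buffers, 6 had one in vehicle (66.7%) and 5 in both lists (55.6%), with *Calr*, the gene for calreticulin, among them. For store-operated entry the counts were 4 of 11 genes in vehicle (36.4%, at the share of all genes) and 2 in cAMP (18.2%). The store sensor gene *Stim1* and the channel gene *Orai3* had a peak in both lists, and *Stim2*, *Orai1* and the 5 *Trpc* genes examined had none. Plasma membrane and mitochondrial calcium transport had 4 of 12 genes in each list (33.3%, near the shares of all genes), and no *Atp2b* gene, the plasma membrane calcium pumps, had one.

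Downstream of calcium, 10 of 16 genes for calmodulin and its kinases had a peak in vehicle (62.5%) and 7 in cAMP (43.8%), with *Camk1*, *Camk2d*, *Camk2g*, *Camkk2* and *Camk2n1* in both. At *Camk2g* the peaks of the lists did not overlap. Of 11 genes for calcineurin, its regulators and NFAT factors, 6 had one in vehicle (54.5%), 2 in cAMP (18.2%) and 1, *Ppp3cc*, in both (9.09%). The shares of all genes were 36.7%, 28.9% and 22.5%, so the last 2 counts were below them. No difference between groups, or between a group and all genes, was tested.

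**Figure D5:**
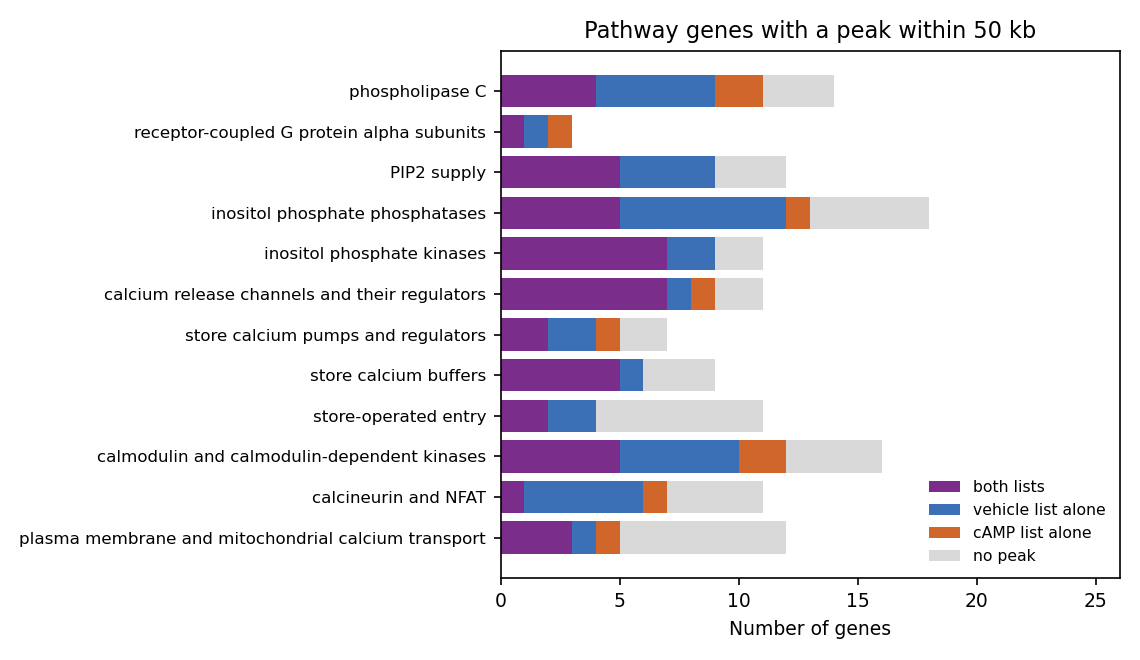
Number of genes (horizontal axis) in each of the 12 groups of the pathway list with a peak within 50 kb in both lists (purple), in vehicle alone (blue), in cAMP alone (orange) or in neither (grey). Inositol phosphate kinases and release channels have 7 genes each in both lists, and store-operated entry has 7 of 11 genes without a peak.

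By the better of their 2 ranks, each within its own list of 5721 or 4025 peaks, the 10 leading genes of the pathway list were *Inpp5a*, *Ppp3cc*, *Gna11*, *Irag1*, *Inpp4a*, *Atp2a1*, *Camk2d*, *Rcn2*, *Pi4k2a* and *Calu*. This rule favours the shorter cAMP list. *Pi4k2a* and *Calu* entered by cAMP ranks of 365 and 366, ahead of *Ip6k3* and *Itpr3*, which share a vehicle peak of rank 372 and the higher score of 187.28. *Ip6k2* (rank 375, score 186.66) and *Stim1* (rank 380, score 185.81), both in vehicle, also had higher scores than these 2 genes. The best *Ppp3cc* peak scored 402.48 and ranked 44 in vehicle, but its nearest coding TSS was that of *Sorbs3*. The best peaks of *Gna11*, a Gq family alpha subunit gene, scored 279.36 in vehicle and 264.13 in cAMP, and their nearest coding TSS was that of *Aes*. *Irag1*, the gene of an IP3 receptor regulator that GENCODE lists as *Mrvi1*, had peaks that scored 216.39 and 243.53, with *Ctr9* as the nearest coding gene. For these 3 genes the position does not single out the pathway gene.

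*Inpp4a*, the gene for a phosphatase of phosphoinositides, had its best peak inside the gene, with scores of 252.3 in vehicle and 109.87 in cAMP. The best *Calu* peak lay over the TSS, with scores of 114.87 and 146.34. CALU, calumenin, is a calcium-binding protein of the secretory pathway. The best peaks of *Atp2a1*, a second SERCA pump gene, scored 208.05 and 192.61 and were nearest to *Sh2b1*. Those of *Rcn2*, a gene for a calcium-binding protein of the endoplasmic reticulum, scored 193.09 and 159.61 and were nearest to *Pstpip1*. Those of *Pi4k2a*, the gene for a kinase on the way to PIP2, scored 91.03 and 146.59 and were nearest to *Avpi1*. Of the 10 leading genes, *Inpp5a*, *Inpp4a*, *Camk2d* and *Calu* were themselves the nearest coding gene to their best peak in vehicle and cAMP. No other peak within 50 kb of the pathway list scored as high as the *Inpp5a* upstream peak. That score was part of the choice of genes, so its lead is not a finding.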

How the data were processed

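Ad4BP/SF-1 ChIP-seq was compared by position between vehicle-treated and cAMP-treated Leydig cells, with 1 library each. The authors mapped reads to mm10 with Bowtie (version 0.12.8 in the submitters' processing notes), with at most 3 mismatches, and used the uniquely mapped reads to call peaks in each library with MACS without its fragment model. Whether the input DNA served as the control was not given in the sources used here. The methods state a p-value threshold of 0.001, which equals a score of 30, but no listed peak scored below 50. The deposited value of each peak is the authors' MACS score, 10 times −log10 of the p-value, and it is not scaled for depth. Reads with several positions were left out, which can remove peaks in repeats.

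From the lists, overlaps of at least 1 bp with gene bodies and the 50 kb on either side were counted with pandas 2.3.3 and numpy 2.4.6 (Python 3.11.15), using the protein-coding genes of GENCODE M21. A counterpart was a peak of the other list that shared at least 1 bp. Sequences were read with pysam 0.24.0 from RefSeq's copy of mm10, indexed with samtools 1.23.1. Intervals are exact Clopper-Pearson at 95% (scipy 1.17.1), and plots were drawn with matplotlib 3.10.9. The functions were tested on simulated data. Coordinates count from 1.

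The 9 genes and the list of 135 genes were chosen with earlier results of these data known. Named were the 9 genes, the 10 genes of the wider list with the best-ranked peak, the nearest coding gene where it was another gene, and the 3 peaks most like the *Inpp5a* pair. *Ip6k2*, *Stim1*, *Gnaq*, *Gna14* and the groups' members without a peak or with a peak in both lists were picked for naming with their values in view, and the AGGTCA search and the base after the consensus were added after the sequences had been seen. With 1 library per condition no test was made and no library could be left out. Windows, score limits, list lengths, overlap rules and consensus forms were varied.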

Additional observations from a re-analysis of the deposited data

How the results depend on the processing

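No test was run and no library was left out. No paired analysis was possible because each condition has 1 library. Depth is unknown for both libraries. Of 81 values under an alternative, 45 were within 1.5 times the main value and 36 moved further. In each of these the alternative itself keeps fewer or more peaks or another start site.

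With gene bodies alone, 4 of the 9 genes had a peak in vehicle, 4 in cAMP and 3 in both, with 7 and 8 peaks. The *Inpp5a* upstream peak is then left out. The pathway list then had 41, 29 and 19 genes, and all protein-coding genes 2770, 2009 and 1409. With 10 kb on either side, the *Inpp5a* upstream peak is also left out, and *Inpp5a* and *Itpr3* had 0 cAMP peaks. Of the 9 genes, 7 then had a peak in vehicle, 6 in cAMP and 5 in both, with 10 peaks in vehicle. The pathway list had 26 genes in both lists, and all genes 4231, 3061 and 2213. With 100 kb, 7473 of all genes had a peak in both lists. With scores of at least 100, the 9 genes had 6 of 17 peaks in vehicle and 6 of 14 in cAMP, against 26.6% and 23.0% of all peaks. Of these, 5 in each list had a counterpart that itself scored at least 100, against 38.6% and 63.3% of all such peaks. The *Itpr2* cAMP peak that scored 120.75 overlapped a vehicle peak below this limit, at 59.15. The consensus was in 5 in vehicle and 6 in cAMP, against 87.5% and 92.0%. The pathway list then had 30, 25 and 19 genes, and all genes 3204, 2001 and 1469. With the nearest TSS alone, the 9 genes had 11 vehicle peaks and the pathway list 43, 30 and 19 genes. The median distance of the peaks from a TSS of their gene was 17485 bp in vehicle and 23721 bp in cAMP. It was 41270 and 87385.5 bp from the outermost 5′ end, and 8279.5 bp in vehicle with scores of at least 100.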

Other observations

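Base composition at the peaks of the 9 genes was close to that of all peaks. The median GC content was 48.1% in vehicle and 45.7% in cAMP, against 48.2% and 47.4% over all peaks. A median of 14.3% and 14.4% of the bases was masked as repeats, against 13.8% and 14.4%. The median width was 543 and 430 bp, against 513 and 476 bp, and the median score was 80.7 and 86.2, against 72.4 and 67.8.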
